A study of Mus musculus with 36 samples.

Results

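In mouse embryonic stem cells (ESCs), 2961 of the 8246 CHD4 sites, 35.9%, lay in 672 dense clusters. A CHD4 site is a peak of the replicate 1 list that shares at least 1 bp with a peak of the replicate 2 list. Sites were joined when the gap between neighbours was at most 12500 bp, and a joined group with 3 or more sites was called a cluster. The clusters were thus chosen by the measured positions of CHD4 peaks, so that their number, span and density are a description. The other 5285 sites, 3601 single sites and 842 pairs, served for comparison.

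The peaks came from chromatin immunoprecipitation followed by sequencing (ChIP-seq), which maps where on the genome a protein sits. MBD3 and CHD4 were profiled in wild-type R1 ESCs, cultured in serum with LIF and 2 inhibitors (2i), and in neural progenitors (NPCs) derived in culture from R1 ESCs. SIN3A was profiled in the wild-type ESCs without and with added spike-in chromatin, and ZFP296 was precipitated with a GFP antibody from R1 ESCs labelled as carrying a ZFP296 BAC, a bacterial artificial chromosome (the study's methods name another parental ESC line for GFP-ZFP296). MBD3 and CHD4 each had 2 ESC lists and every other entry had 1 list.

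CHD4 is the ATP-dependent remodeler of NuRD, the nucleosome remodeling and deacetylase complex, which moves nucleosomes and removes acetyl groups from histones through HDAC1 and HDAC2. MBD3 is the subunit that holds the remodeling and the deacetylase modules of NuRD together, while SIN3A is the scaffold of another HDAC complex. In ESCs, NuRD is known for tuning the expression of pluripotency genes at active promoters and enhancers, and ZFP296 is a zinc finger protein of ESCs that binds NuRD.

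The central 200 bp of the site with the highest replicate 1 value are given for the 5 clusters with the most sites, to show what lies at their strongest CHD4 peaks. The sequences are of build mm9, and capitals mark any of the strings ATGCAAAT (the octamer of POU factors), CCATTGT (SOX factors), TCAAGGTCA (ESRRB), TGACTCA (AP-1) and TTAGGG (the telomere repeat unit), searched on both strands, of which none contains another.
Pgpep1 cluster, chr8:73155182-73155381, plus strand: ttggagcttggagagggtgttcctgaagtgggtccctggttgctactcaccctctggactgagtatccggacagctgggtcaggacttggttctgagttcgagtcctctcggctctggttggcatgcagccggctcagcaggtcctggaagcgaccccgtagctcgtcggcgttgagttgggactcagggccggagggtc
Nkain1 cluster, chr4:130196043-130196242, plus strand: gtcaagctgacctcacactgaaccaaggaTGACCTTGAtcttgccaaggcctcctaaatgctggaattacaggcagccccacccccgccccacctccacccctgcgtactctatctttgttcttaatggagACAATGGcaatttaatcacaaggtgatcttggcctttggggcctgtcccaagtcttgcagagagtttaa
Cd9 cluster, chr6:125361525-125361724, plus strand: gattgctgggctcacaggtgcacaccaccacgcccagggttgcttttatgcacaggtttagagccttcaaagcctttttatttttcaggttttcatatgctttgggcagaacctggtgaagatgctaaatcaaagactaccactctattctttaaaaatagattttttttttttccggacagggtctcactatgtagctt
Arhgef19 cluster, chr4:140847474-140847673, plus strand: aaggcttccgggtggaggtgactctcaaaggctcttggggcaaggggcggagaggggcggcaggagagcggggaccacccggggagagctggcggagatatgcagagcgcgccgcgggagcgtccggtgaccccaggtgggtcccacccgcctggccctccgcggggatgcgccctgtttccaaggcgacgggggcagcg
Rbpms cluster, chr8:35025083-35025282, plus strand: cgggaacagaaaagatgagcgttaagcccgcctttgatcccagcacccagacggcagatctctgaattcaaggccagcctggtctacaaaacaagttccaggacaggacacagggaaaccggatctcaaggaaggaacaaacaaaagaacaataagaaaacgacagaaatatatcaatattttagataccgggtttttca
The Pgpep1 window lay in a coding exon of Gdf15, the Rbpms window in an intron of Rbpms, and the Nkain1, Cd9 and Arhgef19 windows between protein-coding genes. Of these 5 windows, the Nkain1 window held marked strings, one of the SOX and one of the ESRRB kind, and the other 4 held none.

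A further 7 windows were chosen from sites in clusters near the listed ESC genes described below, as examples that held a POU, SOX or ESRRB string and overlapped an MBD3 site of both lists. Not every such window is shown.
Pou5f1 cluster, chr17:35641960-35642159, plus strand: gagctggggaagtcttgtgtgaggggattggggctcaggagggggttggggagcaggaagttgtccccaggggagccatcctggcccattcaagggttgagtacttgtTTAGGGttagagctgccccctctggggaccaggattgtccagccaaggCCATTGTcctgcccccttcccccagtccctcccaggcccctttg
Sox2 cluster, chr3:34552881-34553080, plus strand: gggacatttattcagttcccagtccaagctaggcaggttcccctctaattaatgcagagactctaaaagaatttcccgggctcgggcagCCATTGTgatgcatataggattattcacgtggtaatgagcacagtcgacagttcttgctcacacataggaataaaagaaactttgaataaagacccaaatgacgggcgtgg
Jarid2 cluster, far site, chr13:44800957-44801156, plus strand: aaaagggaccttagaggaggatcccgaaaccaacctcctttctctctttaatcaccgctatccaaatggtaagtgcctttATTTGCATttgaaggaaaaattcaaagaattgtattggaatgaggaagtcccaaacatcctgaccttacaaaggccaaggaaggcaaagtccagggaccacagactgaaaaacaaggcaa
Jarid2 cluster, near site, chr13:44817574-44817773, plus strand: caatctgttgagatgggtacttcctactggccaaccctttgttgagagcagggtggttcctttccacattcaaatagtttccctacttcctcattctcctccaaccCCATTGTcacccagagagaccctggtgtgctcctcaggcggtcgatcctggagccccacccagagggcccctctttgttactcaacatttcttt
Socs3 cluster, near site, chr11:117834115-117834314, plus strand: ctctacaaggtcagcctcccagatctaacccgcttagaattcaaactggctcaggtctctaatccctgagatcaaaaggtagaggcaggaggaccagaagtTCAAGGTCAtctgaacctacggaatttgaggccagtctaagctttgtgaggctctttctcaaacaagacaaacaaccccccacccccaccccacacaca
Socs3 cluster, far site, chr11:117836890-117837089, plus strand: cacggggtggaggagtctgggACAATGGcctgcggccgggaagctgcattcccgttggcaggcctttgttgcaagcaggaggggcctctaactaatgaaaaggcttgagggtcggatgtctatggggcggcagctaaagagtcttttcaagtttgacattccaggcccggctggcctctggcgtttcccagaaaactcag
Sall1 cluster, chr8:91539585-91539784, plus strand: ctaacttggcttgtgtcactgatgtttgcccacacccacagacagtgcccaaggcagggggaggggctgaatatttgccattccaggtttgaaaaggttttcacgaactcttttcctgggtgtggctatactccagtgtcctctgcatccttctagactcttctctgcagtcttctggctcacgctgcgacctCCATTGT
The Pou5f1 window was centred 923 bp upstream of the gene start, and the Sox2 window 3922 bp downstream of it. The Jarid2 windows lay 23787 bp and 7170 bp upstream of Jarid2, and the Socs3 windows 2853 bp and 5628 bp upstream of Socs3. The Sall1 window was 28377 bp downstream of the Sall1 start, past the gene. A matching string describes these letters and is not by itself a bound site.

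These strings were about as frequent at clustered sites as elsewhere, except for the SOX string. It was present in 3.28% of the windows of clustered sites and in 4.72% of the others, a difference of -1.44 percentage points (95% Newcombe interval -2.28 to -0.55). These intervals, here and below, cover counting error only and treat sites of the same cluster as separate. ATGCAAAT was in 2.87% and 2.88% (difference -0.01 points, -0.74 to 0.78), TCAAGGTCA in 3.08% and 3.13% (-0.05, -0.81 to 0.76) and TGACTCA in 4.70% and 4.78% (-0.08, -1.01 to 0.91). TTAGGG was in 8.52% and 7.62% (0.90, -0.31 to 2.16). Over all 8232 windows with reference sequence the shares were 2.88% for ATGCAAAT, 4.20% for CCATTGT, 3.11% for TCAAGGTCA, 4.75% for TGACTCA and 7.94% for TTAGGG.

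The clusters ranged widely in size. Of the 672, 329 had 3 sites, 140 had 4, 67 had 5, 112 had from 6 to 9 and 24 had 10 or more, up to 21. Because sites are replicate 1 peaks, several can share a replicate 2 peak. The spans of 635 clusters held 3 or more replicate 2 CHD4 peaks, and those of the others, Lefty1 and Nr5a2 among them, held fewer. The median span was 10720.5 bp (interquartile range 5310 to 15934), from 840 bp to 67182 bp, and together the clusters covered 8.30 Mb, 0.312% of chromosomes 1 to 19, X and Y. Within them the median gap between sites was 1869 bp. Close to the thresholds, the largest gap within a cluster was 12481 bp and the smallest gap from a cluster to the next site 12517 bp. The clusters of 3 sites spanned a median of 6615 bp, and the 842 pairs just outside spanned a median of 2635.5 bp.

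**Figure D1:**
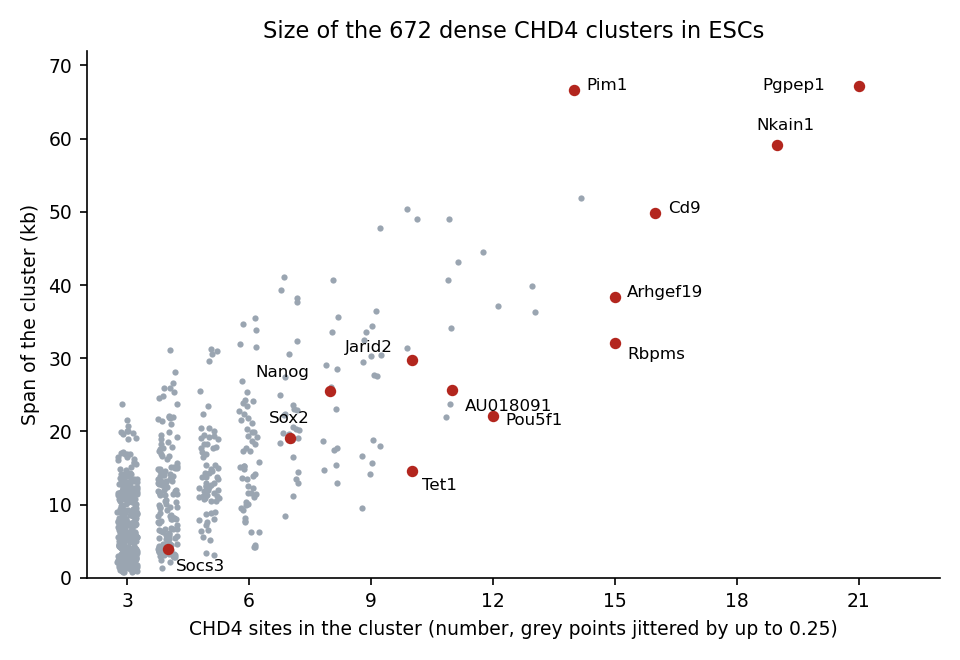
Number of CHD4 sites (x axis) against span in kb (y axis) of each of the 672 clusters, one point per cluster, with 13 clusters named in red at their true number of sites. Most clusters had few sites, and the Pgpep1 cluster, with 21 sites over 67182 bp, lay at the upper end of both axes.

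Single peaks in the clusters were hardly stronger than elsewhere. The deposited peak value, on a −log10 scale, had a median of 9.04 in clustered and 8.66 in other sites for replicate 1, and of 12.1 and 11.8 for replicate 2. The highest replicate 1 value of a cluster was a median of 2.35 times its lowest. This ratio cannot fall below 1 and was not computed for other sites. The highest value of any cluster, 141, was at a 3-site cluster near Bcar3, an adaptor protein of cell adhesion signalling, so that the strongest peak was not in a large cluster. By median, clustered sites were 269 bp wide and the others 237 bp.

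Chromosome 8 held most clusters, 66, or 6.10 per 100 protein-coding genes, followed by chromosome 4 with 60, chromosome 11 with 54 and chromosome 6 with 53. The X chromosome held 1 cluster, at Alg13, with 31 CHD4 sites in all on that chromosome. Chromosome 6 also held 8.62% of all replicate 1 CHD4 peaks but 5.57% of those of replicate 2, whereas chromosome 8 held 8.12% and 7.70%. Without chromosomes 6 and 8, 553 clusters remained.

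The replicate 2 CHD4 list stood apart at one locus. Its 29974 peaks all carry a name that mentions a Zfp219 BAC, whereas its labels say wild-type. In the 200 kb at chr14:52600001-52800000, which holds Zfp219, it listed 67 peaks, more than in any other 200 kb bin (the next had 46, and the median over 6132 bins with a peak was 3), whereas replicate 1 listed 9. Clusters named for Zfp219 (4 sites) and Olfr221 (3 sites) lie there: their spans held 4 and 3 peaks of replicate 1 but 19 and 10 of replicate 2, and the origin of these peaks was not tested. Clusters built from replicate 1 alone numbered 1060 and from replicate 2 alone 3047.

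The 10 clusters with the most sites were named for the protein-coding gene covering most of the span, otherwise for the nearest gene start. The largest, on chr8:73132012-73199193, held 21 sites and spanned the starts of 5 genes: Pgpep1, Lrrc25, Gdf15, a stress-induced cytokine, Lsm4, a component of spliceosomal particles, and Ssbp4. The next were the Nkain1 region (19 sites over 59152 bp), a region 6426 bp from Cd9 (16 sites over 49856 bp), the region upstream of Epha2 that touches Arhgef19 (15 sites over 38393 bp) and Rbpms (15 sites over 32116 bp). Rbpms encodes an RNA-binding protein, Cd9 a tetraspanin of the cell surface and Epha2 an ephrin receptor.

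Then came Pim1, which encodes a kinase (14 sites over 66675 bp), Gpr37l1 (14 sites), Gtf2ird1 (13 sites, 98.2% of the span inside the gene), Smarcad1, which encodes a chromatin remodeler (13 sites), and 6430527G18Rik (12 sites over 44564 bp). These 10 clusters differed in the other factors. Gtf2ird1 held 1 MBD3 peak of replicate 1 and 3 of replicate 2 but 0 peaks of ZFP296 and of either SIN3A list, and Pgpep1 and Rbpms also held 0 ZFP296 peaks. Arhgef19 held 5 ZFP296 peaks, the most of the 10.

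The clusters with the most MBD3 sites of both lists in their span included known ESC loci. The Pou5f1 cluster, chr17:35624667-35646712, over the gene of the central pluripotency factor OCT4, had 12 sites with replicate 1 values from 3.94 to 20.1. At 4 of them, centred 14827, 16379, 17393 and 18210 bp from its start, MBD3 of both lists and ZFP296 peaks overlapped, and at 3 of these SIN3A of both lists did so too. The remaining ZFP296 peak overlapped the weakest site of the cluster, with no MBD3, and NPC lists had 0 peaks there. The sites of the cluster that carried all of MBD3, ZFP296 and SIN3A thus lay side by side over 1 stretch.

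The AU018091 cluster, chr7:3192093-3217780, ended 847 bp before the annotated Mir290 gene, the first of a group of microRNA genes that are abundant in ESCs. It had 11 sites, 5 with MBD3 of both lists, all 5 of which also had a ZFP296 peak, and 4 of these SIN3A of both lists. Like Pou5f1 it held 0 peaks of either NPC list. The others were Cdh1, which encodes E-cadherin (9 CHD4 and 5 MBD3 sites), a region 36212 bp from the kinase gene Sik1 (8 and 5) and Ooep with Dppa5a, a marker of pluripotent cells (10 and 4). Cdh1, Sik1 and AU018091 had the most, 5 each, whereas Pou5f1 and Ooep tied with 6 further clusters at 4, Tet1 among them, and come first of these 8 by number of CHD4 sites and then span.

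By number of ZFP296 peaks, AU018091 and Lama5, a laminin gene, held 6 each, followed by Pou5f1, Arhgef19 and Mapt, the gene of the tau protein, with 5 each. A ZFP296 peak overlapped 6 of the 11 CHD4 sites at AU018091 but 2 of the 5 at Lama5. The Nanog cluster had 8 sites with values up to 32.1, MBD3 peaks of replicate 1 at 3 sites and of replicate 2 at 2, SIN3A of both lists at 3, and 0 ZFP296 peaks. Pluripotency loci thus differed among themselves in ZFP296.

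The clusters with the most NPC CHD4 peaks were not those named above for MBD3 or ZFP296, but Pgpep1 and Cd9 were also among the largest. Such counts depend on span. The cluster 48085 bp from 6430527G18Rik (11 ESC sites) held 13, and 6 of its ESC sites overlapped one. Cd9 held 8, Pgpep1 7, Itpr3, an intracellular calcium channel gene, 6 and Gadd45b, a stress response gene, 6. At Cd9, 5 of the 16 ESC sites overlapped an NPC CHD4 peak.

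**Figure D2:**
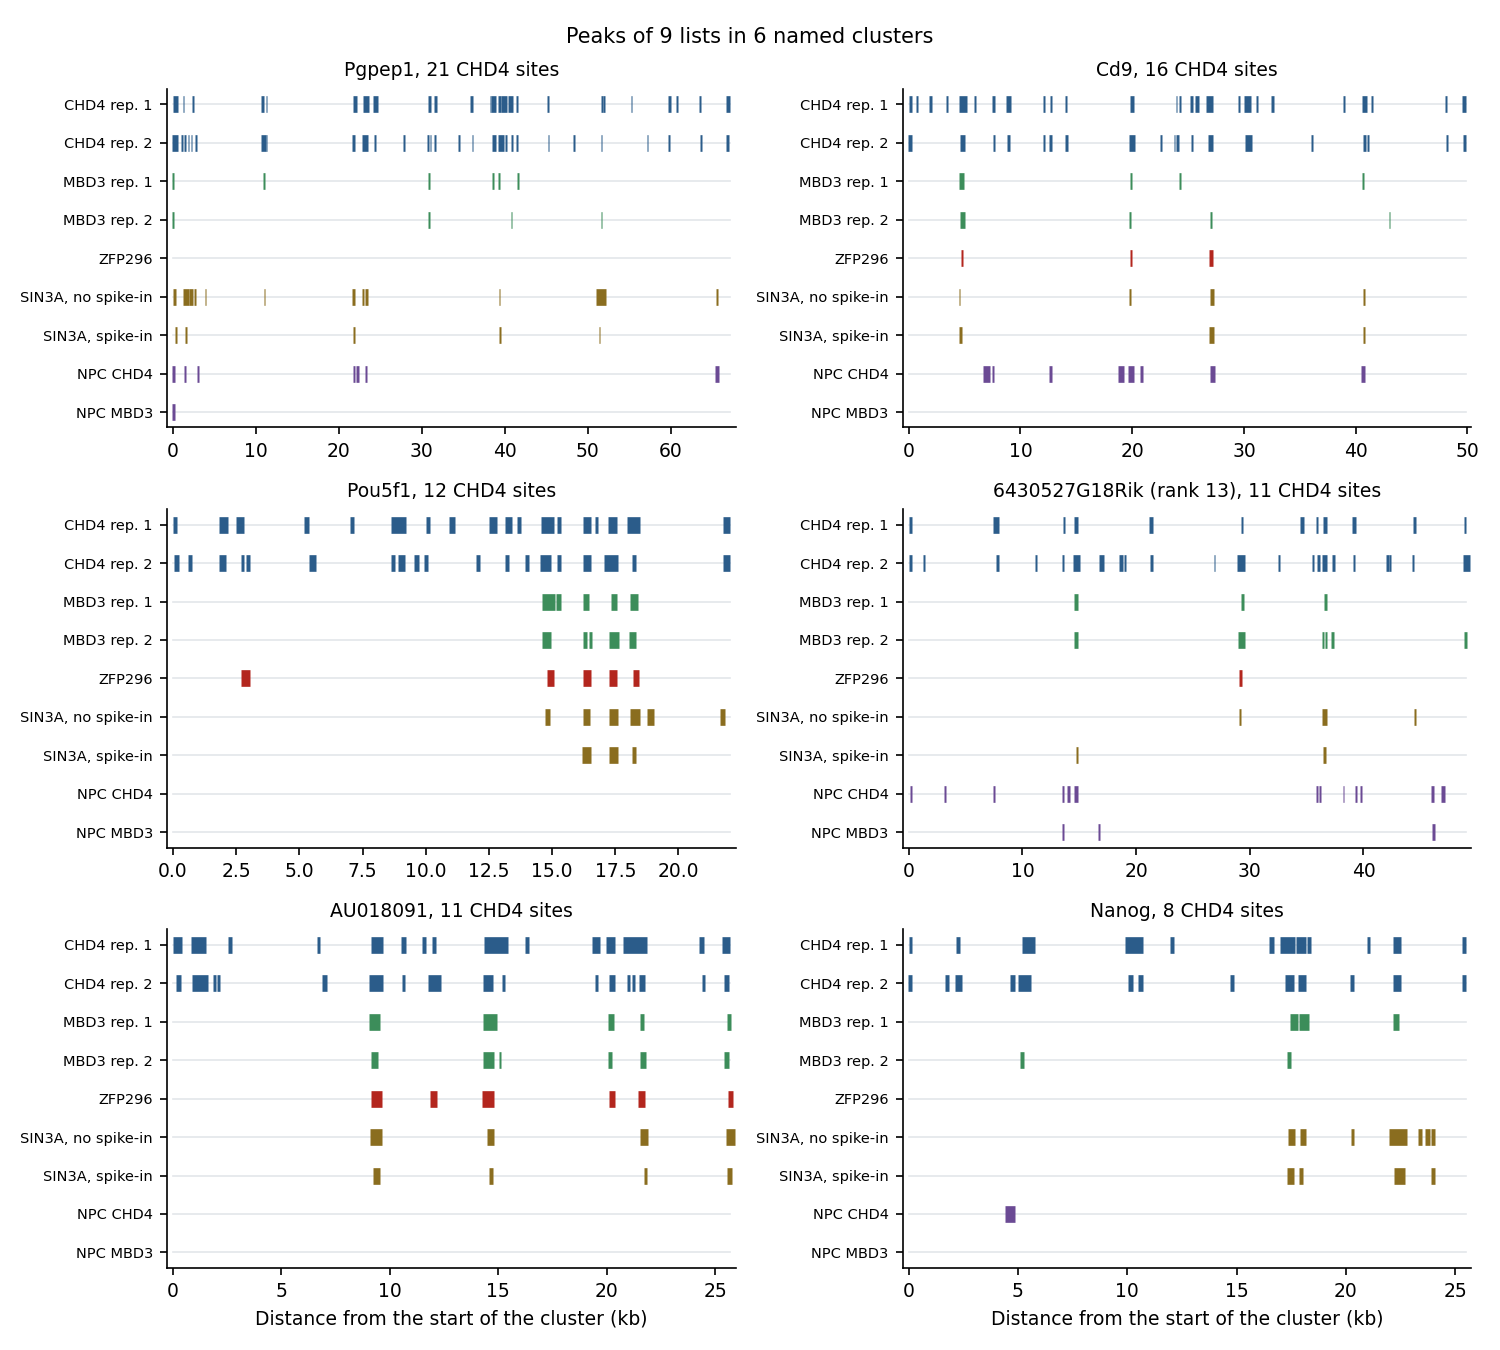
Peaks of 9 lists (rows) along 6 named clusters, by distance from the cluster start in kb, each bar drawn to scale from peak start to peak end. At Pou5f1 and AU018091, 3 and 4 CHD4 sites carry all of MBD3, ZFP296 and SIN3A of both lists. In each, a further site carries MBD3 of both lists and ZFP296 without SIN3A of both lists. The remaining sites carry a peak of 1 of these factors or none. These clusters have 0 NPC peaks, while 13 NPC CHD4 peaks are spread over the 6430527G18Rik cluster of rank 13.

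Over all clusters, 442 (65.8%) held an MBD3 peak of replicate 1, 557 (82.9%) of replicate 2, and 364 (54.2%) an MBD3 site found in both lists. ZFP296 peaks were in 345 clusters (51.3%) and SIN3A of both lists in 308 (45.8%). All of MBD3, ZFP296 and SIN3A were present in 158 clusters and none of these in 153. Of the clusters, 78 had no site with an MBD3 peak of either list. Such counts per cluster depend on its span and number of sites, and they were not made for pairs or single sites. The cluster spans held 567 of the 1508 MBD3 sites of both lists (37.6%), 550 of the 3102 ZFP296 peaks (17.7%) and 546 of the 8843 SIN3A sites of both lists (6.17%). The spans were chosen by CHD4 peaks, whereas these shares are of all sites or peaks of a factor, also those away from CHD4 sites. They are therefore not comparable with the 35.9% of CHD4 sites in clusters. Of the 567 MBD3 sites, 542 (95.6%) lay on a CHD4 site. These 542 were 42.5% of the 1274 MBD3 sites that lay on any CHD4 site.

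Counted per site, MBD3 was more frequent in clusters by the replicate 1 list but not by the replicate 2 list. In replicate 1, 24.96% of clustered and 17.3% of other sites had an MBD3 peak, a difference of 7.63 points (5.78 to 9.50), beside 20.1% over all CHD4 sites. In replicate 2 the shares were 34.4% and 34.4%, a difference of -0.02 points (-2.15 to 2.12), beside 34.4% over all. For MBD3 sites of both lists the shares were 19.1% and 13.8% (5.31 points, 3.63 to 7.02), beside 15.7% over all. The difference therefore was not larger than the spread between the replicate MBD3 lists. With clusters built from CHD4 replicate 1 alone it was 4.69 and -0.47 points for the MBD3 lists of replicates 1 and 2, and with CHD4 replicate 2 alone 4.93 and 4.36 points. With 1 site per joined group, 2.49 points were left for MBD3 of both lists (-0.27 to 5.60).

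The replicate MBD3 lists did agree near gene starts. Among sites in a TSS window, which ran from 1 kb before to 5 kb after a transcription start, replicate 1 MBD3 was at 26.1% of 631 clustered and 13.2% of 1474 other sites (12.99 points, 9.24 to 16.9), and replicate 2 MBD3 at 30.4% and 21.2% (9.26 points, 5.18 to 13.5). Outside TSS windows the lists went opposite ways, with 24.6% against 18.9% in replicate 1 (5.69 points, 3.56 to 7.85) and 35.5% against 39.6% in replicate 2 (-4.08 points, -6.55 to -1.58). ZFP296 likewise was at 14.6% of clustered and 9.63% of other sites in TSS windows (4.95 points, 1.94 to 8.23) but at 17.1% and 16.7% outside them (0.39 points, -1.52 to 2.35). This split by position was chosen after the values had been seen, and the difference between the positions was not tested.

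**Figure D3:**
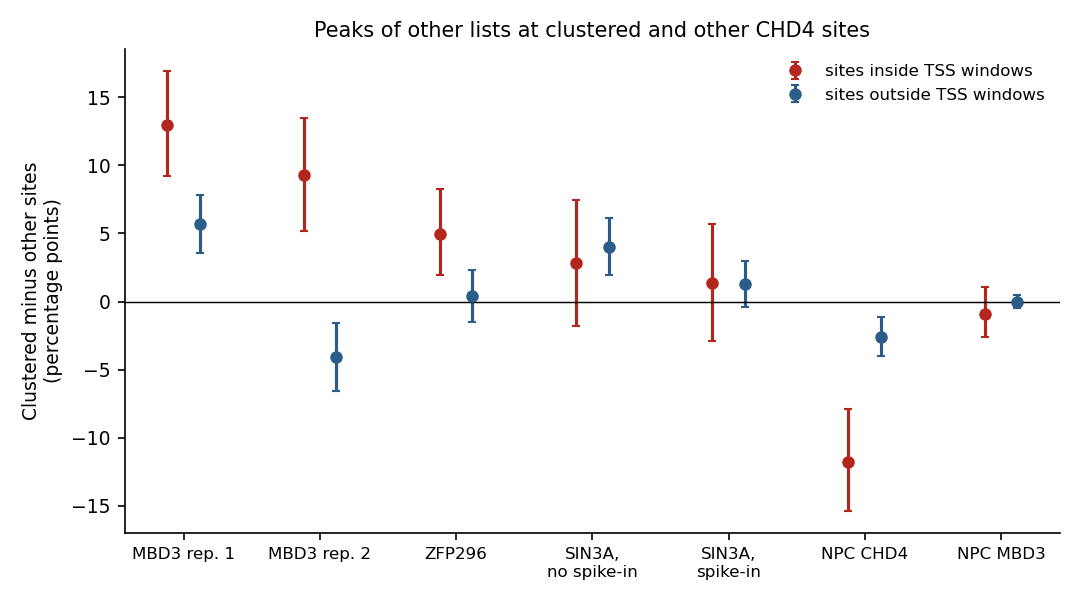
Share of clustered minus share of other CHD4 sites with a peak of each list (y axis, percentage points, bars are 95% Newcombe intervals), for sites inside (red) and outside (blue) TSS windows. Both MBD3 lists lie above 0 inside TSS windows (12.99 and 9.26 points) and on opposite sides of 0 outside them (5.69 and -4.08 points).

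For ZFP296 over all sites the shares were 16.5% clustered and 14.7% other (1.83 points, 0.20 to 3.49), beside 15.4% of all CHD4 sites. ZFP296 had 1 list, so that this difference has no replicate check. With clusters from CHD4 replicate 1 or 2 alone it was 1.40 points (0.23 to 2.58) or 2.80 points (2.23 to 3.38), but the interval took in 0 with a 5 kb gap (1.12, -0.71 to 3.06), with 5 or more sites per cluster (1.67, -0.38 to 3.87) and with 1 site per joined group (1.27, -1.47 to 4.37). It also did so at low (0.41, -2.01 to 3.0003), middle (1.92, -0.80 to 4.79) and high (1.73, -1.37 to 4.90) replicate 1 values. SIN3A of both lists was at 13.10% of clustered and 13.04% of other sites (0.07 points, -1.43 to 1.61), beside 13.1% of all. Outside TSS windows SIN3A of both lists was more frequent at clustered sites (9.44% against 7.90%, 1.54 points, 0.11 to 3.04). There the list without spike-in gave 22.4% against 18.4% (4.04 points, 1.96 to 6.15), and the list with spike-in 12.6% against 11.4% (1.26 points, -0.40 to 2.97). Inside TSS windows the intervals of both SIN3A lists took in 0.

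Sites with MBD3 in clusters often carried ZFP296 as well. Of the 565 clustered sites with MBD3 of both lists, 46.0% had a ZFP296 peak (95% exact binomial interval 41.8 to 50.2) and 32.7% had SIN3A of both lists (28.9 to 36.8), against 9.60% (8.45 to 10.8) and 8.47% (7.39 to 9.66) of the 2396 clustered sites without such MBD3. The same was seen at sites outside clusters, where ZFP296 was at 42.9% (39.2 to 46.5) of sites with and 10.2% (9.36 to 11.1) of sites without MBD3, so that the overlap was not particular to clusters.

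Taken over all clusters, the strongest sites carried MBD3, ZFP296, SIN3A and NPC CHD4 more often than their neighbours, whereas for NPC MBD3 the interval took in 0. Ranked by replicate 1 value, 37.6% of the 672 strongest sites and 21.2% of the 2289 others had replicate 1 MBD3 (16.4 points, 12.4 to 20.5), and 44.9% and 31.3% had replicate 2 MBD3 (13.6 points, 9.42 to 17.8). ZFP296 was at 22.5% and 14.8% (7.66 points, 4.31 to 11.2), SIN3A of both lists at 18.8% and 11.4% (7.30 points, 4.21 to 10.7) and NPC CHD4 at 12.1% and 8.61% (3.45 points, 0.89 to 6.34). NPC MBD3 was at 1.19% and 1.40% (-0.21 points, -1.02 to 1.003). Taken within each cluster, as the strongest site minus the share among its neighbours, the mean differences over 672 clusters were 16.9 points for replicate 1 MBD3 (SE 2.003), 12.7 for replicate 2 MBD3 (SE 2.10), 7.60 for ZFP296 (SE 1.69), 7.33 for SIN3A of both lists (SE 1.58), 3.16 for NPC CHD4 (SE 1.32) and -0.20 for NPC MBD3 (SE 0.46). These SEs are over clusters of the same libraries and do not measure a spread between libraries. For replicate 1 MBD3 the strongest site was above the share of its neighbours in 249 clusters and below it in 175. For replicate 2 MBD3 these counts were 279 and 220. More clusters were below than above for ZFP296 (149 above, 168 below), SIN3A of both lists (121, 145), NPC CHD4 (80, 122) and NPC MBD3 (8, 27). A single site is set here against several neighbours, so for an uncommon feature below outnumbers above even without a difference. The direction of these counts, those for MBD3 included, is therefore no check on the mean differences. This comparison within clusters was added after the values had been seen. Ranked by replicate 2 value, the differences were 16.8 points for replicate 1 MBD3, 16.1 for replicate 2 MBD3 and 8.82 for ZFP296. Both CHD4 lists gave the same strongest site in 292 clusters (43.5%). The strongest sites had a median width of 351.5 bp and the rest one of 248 bp, whose part in these overlaps was not tested. The rise with CHD4 value was also present outside clusters, where replicate 1 MBD3 went from 9.68% of the sites with low to 14.4% with middle and 29.2% with high replicate 1 values.

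In NPCs, CHD4 was less often at clustered than at other ESC sites. An NPC CHD4 peak overlapped 9.39% of clustered and 15.2% of other sites, a difference of -5.79 points (-7.19 to -4.34), beside 13.1% over all CHD4 sites. The share was 15.9% at single sites (14.7 to 17.1), 13.7% in pairs (12.1 to 15.4), 10.3% in clusters of 3 (8.51 to 12.4), 8.94% in clusters of 4 or 5 (7.15 to 11.001), 9.15% in clusters of 6 to 9 (7.21 to 11.4) and 8.25% in clusters of 10 or more (5.41 to 11.9). The cluster sizes from 3 upwards did not differ beyond these intervals. From CHD4 replicate 1 alone the difference was -4.77 points (-5.88 to -3.66) and from replicate 2 alone -2.40 points (-3.09 to -1.72). NPC CHD4 had 1 list, so that no spread between NPC replicates could be given.

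Position relative to genes moved with this result. Clustered sites were less often in TSS windows (21.3% against 27.9%, -6.58 points, -8.47 to -4.65, beside 25.5% over all), with 29.4% at single sites and 12.2% in clusters of 10 or more. Inside TSS windows NPC CHD4 was at 16.8% of clustered and 28.6% of other sites (-11.8 points, -15.4 to -7.92), and outside them at 7.38% and 9.997% (-2.62 points, -4.02 to -1.16), so the direction held in both. Across low, middle and high replicate 1 values the difference was -5.90, -5.82 and -6.33 points. Among sites without MBD3 of both lists, NPC CHD4 was at 9.72% of clustered (8.57 to 10.98) and 16.2% of other sites (15.1 to 17.3). Among those with it, the shares were 7.96% (5.87 to 10.5) and 9.07% (7.08 to 11.4), which overlap.

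**Figure D4:**
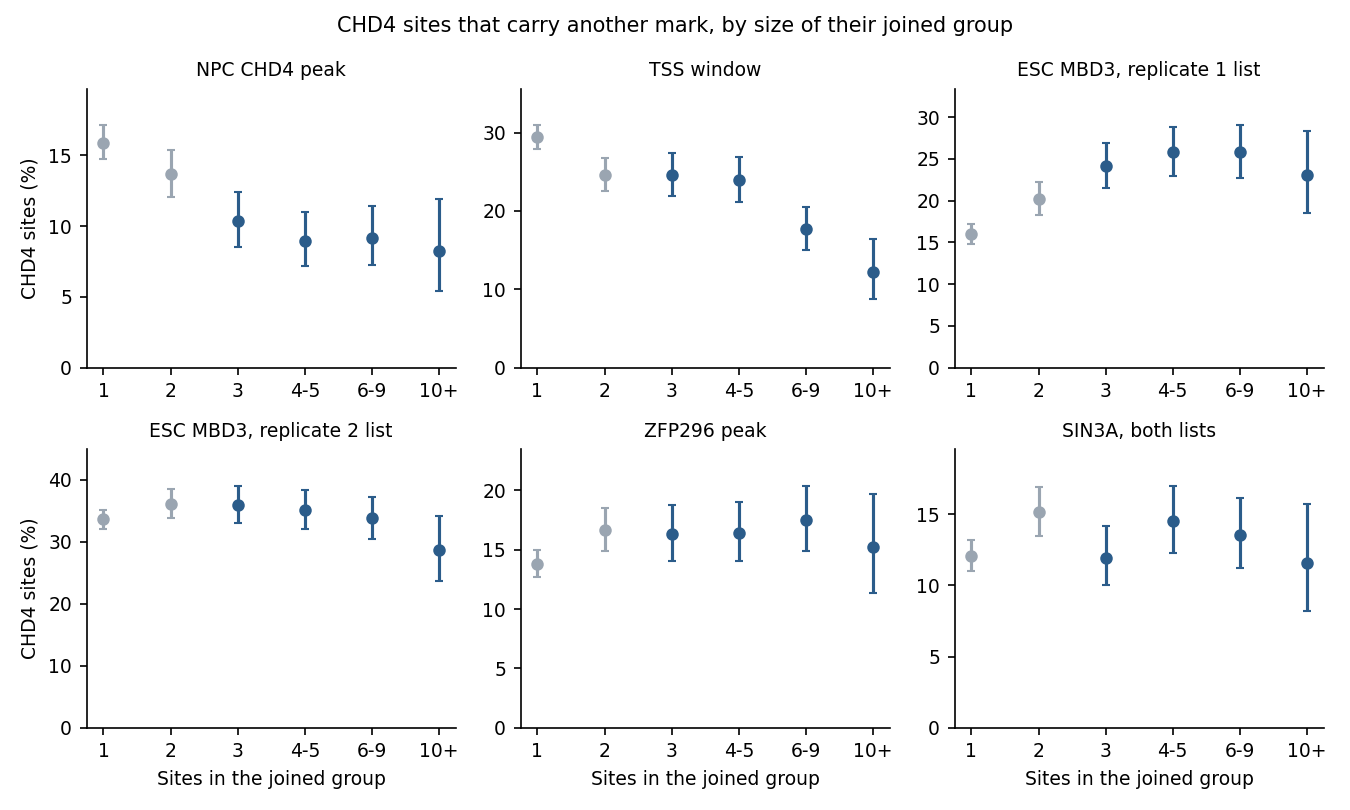
Share of CHD4 sites (y axis, percent, bars are 95% exact intervals) with an NPC CHD4 peak, in a TSS window, or with MBD3, ZFP296 or SIN3A, by number of sites in the joined group (x axis), single sites and pairs in grey and clusters in blue. NPC CHD4 goes from 15.9% at single sites to 8.25% in clusters of 10 or more, and TSS windows from 29.4% to 12.2%.

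As whole regions, 402 of the 672 clusters (59.8%) held no NPC CHD4 peak. That share depends on span and number of sites, and it was not computed for pairs or single sites. With all peaks of the single NPC CHD4 list joined by the same gap there were 1499 NPC clusters, of which 110 (7.34%) overlapped 103 ESC clusters (15.3%). The ESC clusters were built only from peaks found in both replicate lists. The numbers of clusters and these shares are therefore not comparable between the cell types. NPC CHD4 was on every site of 1 cluster, the 3 sites named for Pdia4, an endoplasmic reticulum chaperone gene, which was singled out after its values were seen. NPC MBD3 was at 1.35% of clustered and 1.82% of other sites (-0.47 points, -0.999 to 0.12), beside 1.65% over all, and was present in 57 clusters.

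Relative to genes, 296 clusters (44.0%) had a site in a TSS window and 376 had none. In 246 clusters an annotated start lay within the span, in 30 of them those of 2 or more genes. A protein-coding gene body was touched by 385 clusters, 172 of which lay wholly within one gene. The other 287 touched no gene body, and their nearest start was a median of 17646.5 bp away, with 47 over 50 kb. Thus most clusters were not at promoters alone: in 50 of them every site was in a TSS window.

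Pluripotency and signalling genes had clusters nearby more often than protein-coding genes in general, of which 3.94% (876 of 22238) had a cluster within 25 kb of the start. Of 28 genes listed as pluripotency transcription factors, 12 (42.9%) did: Pou5f1, Sox2, Nanog, Klf2, Tbx3, Sall1, Sall4, Zfp42, Nr5a2, Zfp296, Mycn and Jarid2. Jarid2, which encodes a cofactor of Polycomb repressive complex 2, is also on this list, and without it the count was 11 of 27 (40.7%). These genes also had CHD4 sites of any kind nearby more often, 22 of 28 (78.6%) against 21.4% of all genes. The list was chosen with earlier results of these data known, so that its share is a description.

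Among these 12, the Jarid2 cluster had 10 sites with values up to 29.4, Klf2 and Zfp42 had 9 each, Nanog 8, Sall1 6 with a value of 51.5 at its strongest site, Sall4 5, Mycn 4, and Sox2, Tbx3 and Nr5a2 3 each. Klf2, Sall4 and Nr5a2 encode transcription factors of the ESC network. Zfp296, the gene of the factor profiled, started 1095 bp from a 3-site cluster named for Gemin7, with 3 ZFP296 peaks in its span. The ZFP296 library came from cells labelled as carrying a ZFP296 BAC, whose part in these 3 peaks was not tested. A second Sox2 cluster, with 7 sites, lay 95197 bp from the gene, and held 4 MBD3 sites of both lists, 2 ZFP296 peaks and 0 NPC CHD4 peaks.

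Beyond 25 kb, clusters were also nearest to Prdm14 (6 sites, 32174 bp away), Klf5 (6 sites, 40980 bp) and Klf4 (4 sites, 54761 bp), and 2 clusters were named for Esrrb, whose body they overlapped. Within 100 kb, 17 of the 28 (60.7%) had a cluster, against 11.3% of all genes.

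Of 24 genes of signalling pathways and their targets, 7 (29.2%) had a cluster within 25 kb. Nodal, a ligand of the TGF-beta family, had 9 sites over 15712 bp, Tdgf1, the Nodal co-receptor, 6, Fgf4, the ligand that drives ERK signalling in ESCs, 4, Id1, a target of BMP signalling, 4, Socs3, a feedback inhibitor of LIF signalling, 4, Lefty1, an inhibitor of Nodal, 3, and Lifr, the LIF receptor, 3. At Socs3, 3 of the 4 sites had MBD3 of both lists and 3 had ZFP296, over 3996 bp, while the Lefty1 sites had 0 of either.

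Of 15 DNA methylation and Polycomb genes, 5 (33.3%) had a cluster within 25 kb. The Tet1 cluster, with 10 sites over 14569 bp, had the most sites of these, while the Tet2 (21966 bp) and Aebp2 (20513 bp) clusters were longer, and in the Tet1 cluster 4 sites had MBD3 of both lists and 2 had ZFP296. Tet1 and Tet2 encode oxidases of methylated cytosine, and Tet2 had 4 sites. Aebp2 (5 sites) and Suz12 (4 sites) encode Polycomb proteins, and Uhrf1 (3 sites) a factor of methylation maintenance. The Suz12 cluster held 0 ZFP296 and SIN3A peaks.

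By clusters within 25 kb, the remaining lists lay close to all genes. For NuRD and SIN3A subunits 1 of 22 (4.55%) had a cluster nearby, Sap30, for neural progenitor genes 1 of 17 (5.88%), Hes1, a Notch target, and for ribosomal protein genes 3 of 82 (3.66%). The Hes1 cluster (4 sites) held 3 NPC CHD4 peaks. A CHD4 site of any kind lay within 25 kb of 18 of the 24 signalling genes and 73.3% of the DNA methylation and Polycomb genes, and of 36.4% of the NuRD and SIN3A subunit and 34.1% of the ribosomal protein genes, against 21.4% of all genes. For neural progenitor genes this was 1 of 17 (5.88%), below all genes.

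**Figure D5:**
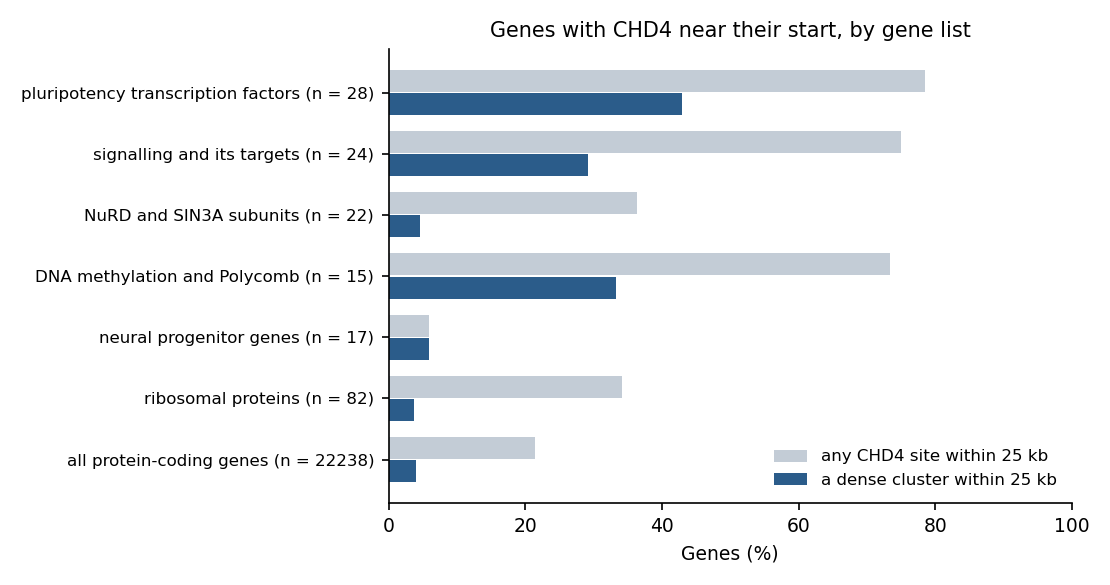
Share of genes (x axis, percent) with any CHD4 site (grey) or a dense cluster (blue) within 25 kb of the annotated gene start, for 6 gene lists and all protein-coding genes. Clusters were near 42.9% of pluripotency transcription factors and 3.94% of all genes, and near 3.66% of ribosomal protein genes.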

How the data were processed

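Per the labels and the study's methods, the authors mapped reads to mm9 with BWA, kept unique, non-duplicate reads and called peaks with MACS for each sample against an input of its cell line. Each deposited peak carries a −log10 value, and the sources used here do not say whether it stems from a p-value or from a q-value. Peak names give thresholds of 0.001 for 8 lists and 0.0001 for SIN3A without spike-in, and mention scaling to an equal read number for 7 lists, so levels were not compared between lists.

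Here 9 lists were used and 27 samples were not. Overlap was at least 1 bp. Protein-coding genes came from GENCODE vM1, where 1 listed gene, Sox1, was not matched. Shares carry 95% exact (Clopper-Pearson) or Newcombe intervals. No p-value was computed. Joining and overlap were tested on simulated data. Named clusters were the 10 with most sites, the 3 longest, the 5 with most MBD3, ZFP296 or NPC CHD4 each, and those near listed genes. Clusters at Bcar3, Alg13, Zfp219, Olfr221 and Pdia4, the farther Sox2 cluster and those over 25 kb from a listed gene were named after their values were seen. A few results that the rule names are not reported here. Members and lists were chosen with earlier results of these data known. Tools were samtools 1.23.1, matplotlib 3.10.9, pyfaidx 0.9.0.4, pandas 2.3.3, scipy 1.17.1, numpy 2.4.6 and Python 3.11.15.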

Additional observations from a re-analysis of the deposited data

How the results depend on the processing

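All 12 alternatives kept fewer clustered sites in TSS windows (-9.47 to -5.34 points), and all 13 kept fewer with NPC CHD4 (-6.65 to -2.40) and more with ZFP296 (0.39 to 3.31). For ZFP296 the interval took in 0 in several of these alternatives, as given above. With 5 or more sites per cluster, 203 clusters were left and the TSS difference was -9.47 points. A value of 6 or more in both CHD4 lists left 447 clusters. Leaving out either CHD4 replicate gave 1060 or 3047 clusters, 3.51 or 3.67 points for MBD3 of both lists and -4.77 or -2.40 for NPC CHD4. Outside TSS windows the NPC CHD4 difference was -2.62 points. For MBD3 it was -0.023 points without MBD3 replicate 1 and 7.63 without replicate 2, and 2.49 with 1 site per cluster. For SIN3A it was -1.81 in the middle range of replicate 1 values and 1.95 in the list without spike-in alone. Alternatives chosen after seeing the data left out chromosomes 6 and 8, with 553 clusters, or shortened the replicate 2 CHD4 list to the length of replicate 1, with 350 clusters, 8.20 points for MBD3 and 2.30 for SIN3A. Shorter or longer CHD4 lists give fewer or more clusters by construction, and for the other changes the cause was not tested. No samples could be paired by replicate number, because every comparison was between sites of the same lists. The strongest site was compared with its neighbours within each cluster. Depth behind the peaks is unknown, so an absent peak is not absent binding.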
